A study of Mus musculus with 33 samples.

Results

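Collagen genes of tendon were followed through a mouse stem cell differentiation: the fibrillar chains Col1a1, Col1a2, Col3a1, Col5a1, Col5a2 and Col5a3, and the fibril-associated chains Col12a1 and Col14a1. The 8 genes were taken by symbol from a count table of 17120 genes, and all 8 were in it and above its filter on low counts. The libraries were 33 cultures in 11 groups of 3 replicates. All began as embryonic stem cells of the ScxGFP reporter, in which green fluorescent protein follows the tendon transcription factor Scx, maintained on embryonic fibroblast feeders and then differentiated in serum-free medium. The first group was paraxial mesoderm (PM, the embryonic source of the somites), collected on day 6 (D6). It followed embryoid body formation and treatment with the WNT activator CHIR and the BMP inhibitor LDN-193189. The methods also describe a PM medium that held AGN 193109 or all-trans retinoic acid, and whether these PM cultures received a retinoid ligand, and which, is not given in the sources used here, so PM may not be a retinoid-free baseline. The other 10 groups were cultured from D6 with TGFβ1, the hedgehog agonist SAG and FGF2, together with 1 of 2 retinoid ligands. CD1530 activates retinoic acid receptor gamma, and AGN 193109 (AGN), an inverse agonist, pushes retinoic acid receptors below their resting activity. The study used CD1530 as its tendon condition and AGN as its fibrocartilage condition. The CD1530 and AGN cultures were harvested 0.25, 0.75, 1.5, 2.5 and 4 days after this induction began. These times are called here D6.25, D6.75 and D7.5 for the early harvests and D8.5 and D10 for the late ones. No group was cultured after D6 without CD1530 or AGN, and the study does not state whether these cells were replated on D6. A change from PM therefore cannot be told apart from any replating or from the start of TGFβ1, SAG and FGF2. The cultures were mixed and unsorted. The labels do not say which stem cell line a replicate came from, and p-values measure the spread between these cultures.

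Fibrillar collagens are secreted as procollagens of 3 chains wound into a triple helix, trimmed at both ends outside the cell and packed side by side into fibrils. Type I collagen, made of Col1a1 and Col1a2 chains, is the bulk of tendon. Type III (Col3a1) co-assembles with type I in developing and healing tendon, and type V (Col5a1, Col5a2 and, in a less common form, Col5a3) starts fibrils and limits their width. Types XII and XIV (Col12a1 and Col14a1) do not form fibrils themselves but sit on the fibril surface, with a short helix and large globular domains that reach between fibrils.

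The 2 classes were plain in the coding sequences. A collagen helix is built of triplets of residues that each start with glycine, and the longest unbroken run of such triplets in the longest coding transcript was 337 to 344 triplets in the 6 fibrillar chains. It was 32 triplets in both Col12a1 and Col14a1. Runs of at least 5 triplets covered 58.8% to 77.2% of the reading frame in the fibrillar chains, 8.12% in Col12a1 and 13.9% in Col14a1. In the GRCm38 build, Col1a1 (ENSMUSG00000001506) spans chr11:94936224-94953042 on the plus strand and Col1a2 (ENSMUSG00000029661) chr6:4504814-4541544 on the plus strand. Col3a1 (ENSMUSG00000026043, chr1:45311538-45349706, plus) and Col5a2 (ENSMUSG00000026042, chr1:45374321-45503282, minus) lie tail to tail, 24614 bases apart with 0 annotated genes between them. Col5a1 (ENSMUSG00000026837) spans chr2:27886425-28039514 on the plus strand, and Col5a3 (ENSMUSG00000004098) chr9:20770050-20815067 on the minus strand. Col12a1 (ENSMUSG00000032332) is at chr9:79598991-79718831 on the minus strand and Col14a1 (ENSMUSG00000022371) at chr15:55307750-55520803 on the plus strand. Of the exon bases of Col5a1, 1.17% were shared with 2810430I11Rik on the opposite strand, which had at most 41 counts in any library.

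RefSeq promoters (GRCm38.p6) were found for 4 of the 8 genes, and the 200 bases before each start are shown because Col5a3 behaved differently from the other members below. Capitals mark 3 common promoter elements on either strand: the CCAAT box, the TATA box with the letters TATAAA, and the GC box, which is spelled GGGCGG. Positions are counted back from the base before the start as -1. The RefSeq start of Col1a2 lies downstream of the first base of the gene span given above, so its window falls inside that span. The windows of the other 3 adjoin the starts of their spans. These 3 kinds of match do not overlap each other.
Col1a2 (chr6:4505418-4505617, plus strand): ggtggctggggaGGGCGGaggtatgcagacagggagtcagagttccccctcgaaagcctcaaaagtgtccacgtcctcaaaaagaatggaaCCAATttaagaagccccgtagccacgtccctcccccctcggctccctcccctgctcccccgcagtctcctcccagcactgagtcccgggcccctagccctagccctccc
Col3a1 (chr1:45311338-45311537, plus strand): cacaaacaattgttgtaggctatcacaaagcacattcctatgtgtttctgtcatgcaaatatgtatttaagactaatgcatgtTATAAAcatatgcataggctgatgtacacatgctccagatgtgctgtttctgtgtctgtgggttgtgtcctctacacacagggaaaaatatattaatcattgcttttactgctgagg
Col5a1 (chr2:27886225-27886424, plus strand): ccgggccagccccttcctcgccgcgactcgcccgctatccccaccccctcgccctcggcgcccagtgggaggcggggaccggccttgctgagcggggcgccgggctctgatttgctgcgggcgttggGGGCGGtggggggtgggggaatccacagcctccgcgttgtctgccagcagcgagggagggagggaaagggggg
Col5a3 (chr9:20815068-20815267, minus strand): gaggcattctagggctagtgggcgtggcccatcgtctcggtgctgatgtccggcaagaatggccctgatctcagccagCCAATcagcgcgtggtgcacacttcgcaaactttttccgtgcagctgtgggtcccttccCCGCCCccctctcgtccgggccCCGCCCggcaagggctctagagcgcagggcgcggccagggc
The Col1a2 and Col5a3 windows each held a CCAAT box, starting at -109 and -122, which 29.3% of 32851 RefSeq windows of the same length also hold. A GC box was present in Col1a2, in Col5a1 and, in 2 copies, in Col5a3 (31% of all windows). Col3a1 alone among the 4 had a TATA box, at -117 (9.96% of all windows), and its GC content was 37.5% against 63.5% to 75.5% in the other 3. E-boxes (CANNTG), the letters bound by basic helix-loop-helix factors such as Scx, occurred 4 times in Col3a1 and 1 time in Col5a3, and 58.2% of all windows hold at least 1. The Smad element CAGAC was in Col1a2, Col3a1 and Col5a1 (35.5% of all windows), and the retinoid receptor half-site AGGTCA was in none of the 4 (11.4% of all windows). A match here is letters in a window, and the windows differ in base composition.

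Libraries held 17116084 to 22775275 counts, except AGN D8.5 replicate 1 with 38120841. Within some groups the collagens moved together: in PM replicate 3 all 8 were below the mean of their group, by 0.24 on average on the log2 scale, and all 8 were below it in CD1530 D6.25 replicate 1 (0.20 on average) and above it in replicate 2. Values below are CPM, counts relative to the library total, scaled by TMM factors (TMM CPM), as mean ± SD of n = 3 libraries. A gene was called changed at an edgeR quasi-likelihood adjusted p under 0.05, with p-values adjusted over all 17120 genes. As RNA came from whole cultures, more cells of a type and more RNA per cell cannot be told apart.

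The 8 collagens took a growing share of all counts. They held 0.279%, 0.266% and 0.221% of the counts in the PM libraries. On D10 they held 2.14%, 2.19% and 2.11% in CD1530 and 2.7%, 2.73% and 2.62% in AGN. The D10 libraries of the 2 conditions did not overlap, with a difference of -0.54 percentage points (CD1530 minus AGN). On D8.5 the means were 1.22% in CD1530 and 1.43% in AGN. With 3 libraries against 3, a two-sided exact permutation test cannot give a p below 0.1, and it gave 0.1 at both times (0.14 after adjustment over 35 tests of shares and ratios). Col1a1 and Col1a2 alone made up 0.17% of counts in PM, 1.39% in CD1530 D10 and 1.75% in AGN D10.

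**Figure D1:**
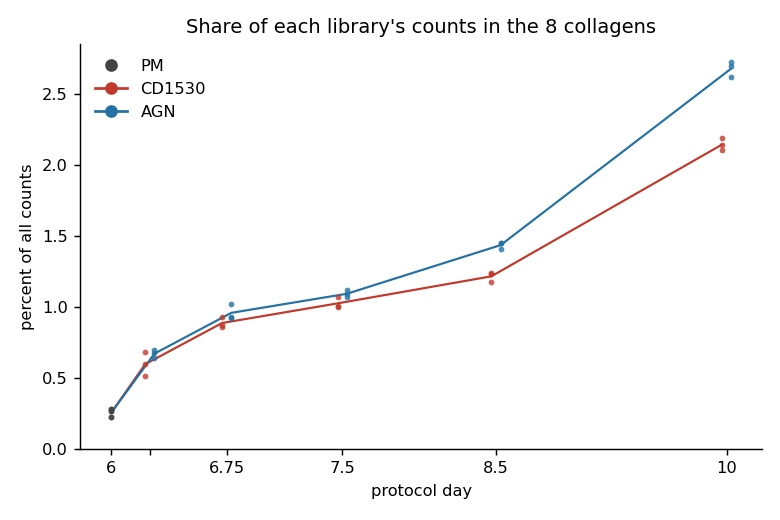
Percent of each library's counts in the 8 collagens (y axis, linear from 0) against protocol day (x axis), with PM in grey, CD1530 in red and AGN in blue; points are libraries and lines join group means. The share climbs from about 0.256% (PM) to 2.14% (CD1530, D10) and 2.68% (AGN, D10).

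Per kb of exon, Col1a1 led the 8 in PM and on D10. On D10 its level was 1491 TMM CPM per kb in CD1530 and 1755 in AGN. Col1a2 stood at 411 and 626, and Col3a1 at 428 and 588. The main type V chains were at 180 and 202 for Col5a1 and at 183 and 231 for Col5a2. Col12a1 was at 26.3 and 19.1, Col14a1 at 22 and 34.8 and Col5a3 at 19.1 and 11.8. In PM the same scale gave 191 for Col1a1, 35.4 for Col1a2, 37.2 for Col3a1, 28 for Col5a1, 14.1 for Col5a3, 11 for Col5a2, 2.83 for Col12a1 and 0.318 for Col14a1. The union of exons of Col1a2 (12.4 kb) is far longer than its longest coding transcript (5.35 kb). Per kb of that transcript Col1a2 was at 955 in CD1530 and 1455 in AGN on D10, above Col3a1 at 754 and 1037. On the same scale Col5a2 was at 264 and 335, above Col5a1 at 182 and 204.

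The first question was when each collagen rose. From PM to D6.25, within 0.25 days of induction, all 8 were higher in CD1530 and all 8 in AGN, where 34.5% and 35.0% of all genes were called higher. The median change of the 8 was 1.09 log2 in CD1530 and 1.40 in AGN, against 0.00 over all genes in each. By D10, 8 of 8 were above PM in CD1530 (43.3% of all genes higher, 39.9% lower) and 7 of 8 in AGN (41.6% higher, 40.4% lower), with Col5a3 the exception. The median change of the 8 from PM to D10 was 3.37 log2 in CD1530 and 3.59 in AGN, against 0.04 and -0.00 over all genes. The CD1530 and AGN comparisons share the 3 PM libraries. With each library's trends in GC content and gene length removed, the 7 genes other than Col5a3 still rose from PM to D10, by 1.86 to 5.62 log2 in CD1530 and 2.02 to 6.29 in AGN.

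**Figure D2:**
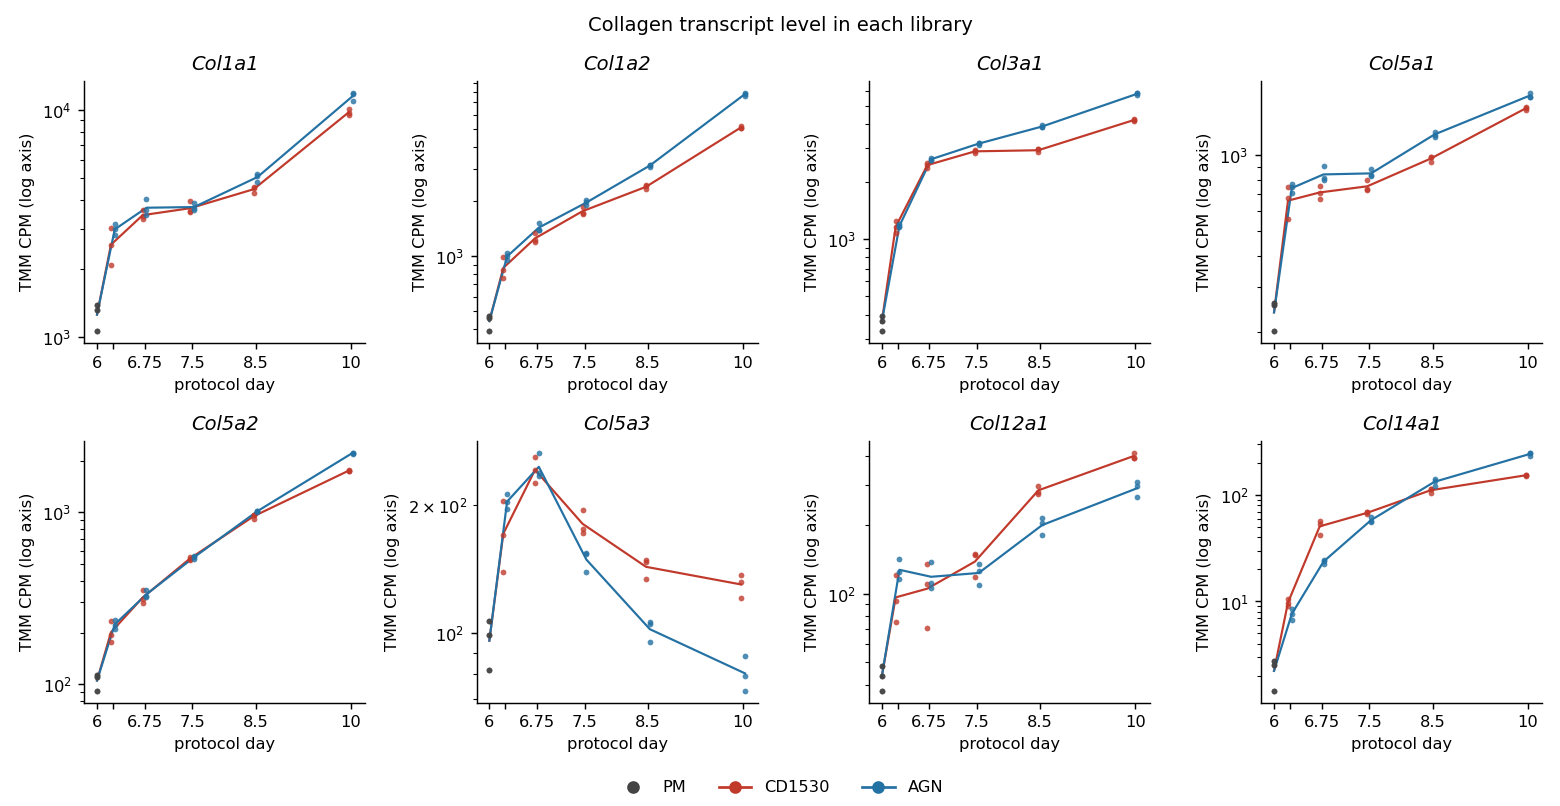
Level of each collagen (TMM CPM, logarithmic y axis) against protocol day (x axis), one panel per gene, with PM in grey, CD1530 in red and AGN in blue; points are libraries and lines join group means. Col1a1 reaches 9785 in CD1530 and 11516 in AGN, Col14a1 starts at 2.23, and Col5a3 has its highest means on D6.75 (241 and 246).

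Col1a1 rose early, showed no called step from D6.75 to D7.5 and then rose again. Col1a1, which gives 2 of the 3 chains of the type I helix, was at 1383, 1316 and 1061 TMM CPM in the PM libraries. In CD1530 its means went from 2550 ± 469 on D6.25 through 3441 ± 159, 3693 ± 240 and 4478 ± 137 to 9785 ± 320 on D10. In AGN they were 2980 ± 162, 3711 ± 324, 3736 ± 129, 5067 ± 220 and 11516 ± 519. The levels on D6.75 and D7.5 overlapped between times and between conditions, and the step between them was 0.10 log2 in CD1530 and 0.01 in AGN, neither called. The largest step after D6.25 was the last, from D8.5 to D10, at 1.13 in CD1530 and 1.18 in AGN. The CD1530 step to D8.5 (0.28) was called with all libraries and lost its call without D7.5 replicate 1 or 3 or D8.5 replicate 2 or 3 (adjusted p 0.0721 to 0.0994). The AGN step to D6.75 (0.32) lost its call without D6.25 replicate 2 or D6.75 replicate 1 (adjusted p 0.0531 and 0.0756) and with GC and length trends removed (0.15, adjusted p = 0.174).

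Col1a2, the other type I chain, climbed at every step. Its PM libraries were at 472, 460 and 388 TMM CPM. CD1530 means were 863 ± 119, 1254 ± 74.8, 1769 ± 85.5, 2407 ± 57.9 and 5109 ± 73.1 on the 5 days, and AGN means were 998 ± 46.2, 1436 ± 80.2, 1973 ± 64.3, 3151 ± 43.5 and 7783 ± 139. In the order of its 11 group means, neighbours overlapped only at D6.25, between the 2 conditions. Against PM the D10 level was 11.6-fold in CD1530 and 17.7-fold in AGN, beside 7.81-fold and 9.19-fold for Col1a1.

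Col3a1 came earlier than type I. From 393, 373 and 329 TMM CPM in PM it reached 1156 ± 82.6 on D6.25 and 2439 ± 83.8 on D6.75 in CD1530, and 1171 ± 25.2 and 2619 ± 20.8 in AGN. By D6.75 it had covered 54.1% of its whole rise from PM to D10 in CD1530 and 41.7% in AGN, where Col1a1 had covered 25.6% and 23.9%. It then held at 2880 ± 46.3 and 2919 ± 63.4 on D7.5 and D8.5 in CD1530, a step of 0.02 log2 that was not called. In AGN it went from 3162 ± 61.8 to 3888 ± 56.1 over the same step (0.30 log2, called). On D10 it stood at 4197 ± 32.1 in CD1530 and 5771 ± 85.6 in AGN.

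The type V chains did not move as a unit. Col5a1 took an early jump, from 238 ± 32.5 in PM. On D6.25 it was at 659 ± 93.8 (CD1530) and 740 ± 30.2 (AGN), or 32.6% and 33.9% of its rise. It then stayed at 711 ± 41 and 752 ± 38.9 in CD1530 and at 838 ± 56.9 and 846 ± 28.7 in AGN on D6.75 and D7.5, with neither step called in either condition. It reached 1532 ± 20.1 and 1718 ± 36.6 on D10. Col5a2, whose chain pairs with Col5a1 in the common type V molecule, started at 106 ± 11.8 and had covered only 5.8% (CD1530) and 5.6% (AGN) of its rise on D6.25. Its CD1530 means were 201 ± 28.6, 320 ± 28.9, 541 ± 11.6, 950 ± 25.1 and 1751 ± 5.82, and its AGN means 223 ± 12.5, 334 ± 18.9, 548 ± 12.7, 1017 ± 8.24 and 2218 ± 17.8. Every step of Col5a2 was called in both conditions, and the conditions overlapped on D6.25, D6.75 and D7.5.

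Col5a3 rose and then fell. Its PM libraries were at 107, 99.2 and 81.8 TMM CPM. On D6.75 they were at 241, 258 and 225 in CD1530 and 265, 237 and 234 in AGN, and the conditions overlapped. It dropped at D7.5 by 0.42 log2 in CD1530 and by 0.72 in AGN, and again at D8.5 by 0.34 and 0.54, all called. The rise to D6.75 in AGN (0.27) lost its call without D6.25 replicate 1 or 2 or D6.75 replicate 1 and with GC and length trends removed (0.09), and the D8.5 fall in CD1530 lost its call without D7.5 replicate 2 or D8.5 replicate 1 (adjusted p 0.0753 and 0.07). On D10 the libraries were at 132, 137 and 121 in CD1530 and at 73.3, 88.6 and 79.5 in AGN. Against PM this was 0.44 ± 0.11 log2 (SE) in CD1530 (edgeR adjusted p = 0.000838) and -0.25 ± 0.11 in AGN (adjusted p = 0.0441). The AGN value was below 0 under all 9 alternative settings and with any 1 library left out, at -1.21 with GC and length trends removed, but its call was lost without PM replicate 1 or 2 or AGN D10 replicate 1 or 3 (adjusted p 0.0814 to 0.208) and when the 6 compared libraries were fitted alone (0.085). The CD1530 value turned to -0.54 with GC and length trends removed (adjusted p = 3.61e-05). Col5a3 has the highest GC content of the 8, at 60.7%.

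The fibril-associated chains started lowest. Col12a1 went from 43.1 ± 5.37 (PM) to 96.2 ± 22.8 (CD1530) and 127 ± 13.2 (AGN) on D6.25. It showed no called step at D6.75 or D7.5 in either condition, and rose at D8.5 by 1.04 log2 to 284 ± 12.6 in CD1530 and by 0.70 to 200 ± 17.2 in AGN. On D10 it was at 401 ± 12.8 and 290 ± 21.4. Its libraries scattered early in CD1530, at 70.9, 135 and 110 on D6.75. Col14a1 was nearly silent in PM, at 2.73, 2.5 and 1.45 TMM CPM (57, 53 and 27 counts), and was called higher at each of the 5 steps in both conditions. Its largest step was from D6.25 to D6.75 in CD1530, 2.38 log2, from 9.77 ± 0.748 to 50.9 ± 7.97. On D10 it was at 154 ± 1.17 in CD1530 and 244 ± 9.71 in AGN, 68.1-fold and 108-fold above PM.

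Set beside all genes, the steps after D6.25 called the collagens more often as higher than as lower. At D6.75, 6 of the 8 rose in CD1530 (25.8% of all genes) and 6 in AGN (24.9%), the uncalled ones being Col5a1 and Col12a1 in both. At D7.5, 4 rose and 1 fell in CD1530 (18.7% of all genes higher, 15.5% lower) and 4 rose and 1 fell in AGN (14.2% higher, 16.0% lower). Col1a2, Col3a1, Col5a2 and Col14a1 rose and Col5a3 fell. The Col3a1 step in CD1530 (0.24) lost its call with GC and length trends removed (0.12, adjusted p = 0.0613). At D8.5, 6 rose and 1 fell in CD1530 (18.8% higher, 17.7% lower), and 7 rose and 1 fell in AGN (21.4% higher, 20.6% lower). At D10, 7 rose in CD1530 (27.4% higher), where Col5a3 changed by -0.14 log2 and was not called, and 7 rose and 1, Col5a3, fell in AGN (29.9% higher, 29.5% lower). That last call for Col5a3 was lost without AGN D10 replicate 1 (adjusted p = 0.06).

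**Figure D3:**
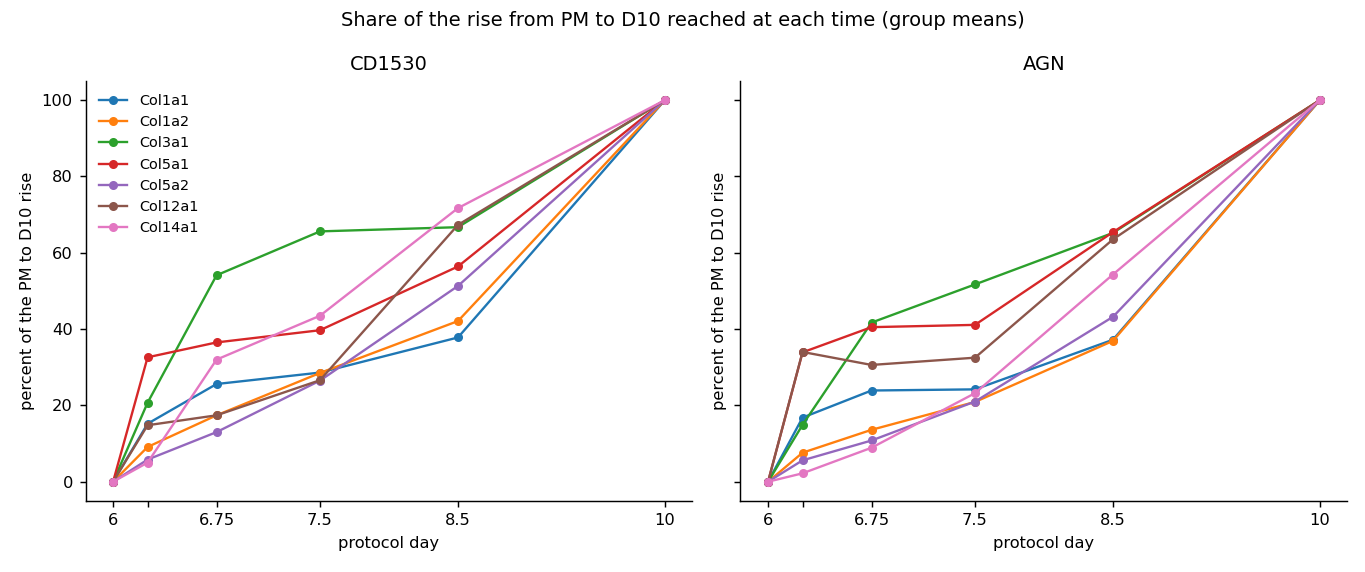
Percent of the rise from PM to D10 reached at each time (y axis, from group means) against protocol day (x axis) for 7 collagens, CD1530 and AGN in separate panels; Col5a3, which fell after D6.75, is left out. In CD1530 Col3a1 is highest on D6.75 and D7.5 (54.1% and 65.6%), and on D8.5 the values run from 37.8% for Col1a1 to 71.7% for Col14a1.

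The second question was where CD1530 and AGN parted. On D6.25 none of the 8 differed by edgeR at an adjusted p under 0.05, when 1.92% of all genes did. DESeq2 also called 0 of the 8. At an unadjusted p under 0.05 edgeR passed 5 of them, but the share of all genes at that cutoff is not given here, so this count is not read as a result. Without CD1530 D6.25 replicate 2, the library in which all 8 stood above the mean of their group, Col1a2 (-0.32), Col5a2 (-0.27) and Col5a3 (-0.39) were called lower in CD1530. On D6.75 (18.0% of all genes) Col14a1 was higher in CD1530, with libraries at 41.9, 57 and 53.8 TMM CPM against 23.9, 24.6 and 22.7 in AGN. That is 1.10 ± 0.09 log2 (SE, adjusted p = 8.73e-11). Col5a1 was lower in CD1530 by 0.24 on that day (adjusted p = 0.0444), a call lost without CD1530 replicate 1 or 3 or AGN replicate 1 or 3 (adjusted p 0.0617 to 0.206). Without CD1530 replicate 2 on the same day, Col1a2 (-0.24) and Col3a1 (-0.13) were also called. On D7.5 (26.9% of all genes) Col14a1 was higher by 0.23 ± 0.08 (adjusted p = 0.0346, and 0.0866 to 0.142 without CD1530 replicate 1 or 2 or AGN replicate 1 or 3) and Col3a1 lower, at -0.13 ± 0.04 (adjusted p = 0.0108, and 0.0535 without CD1530 replicate 3).

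From D8.5 most of the collagens separated. On that day 2 of 8 were higher in CD1530 (20.4% of all genes) and 4 of 8 lower (19.6%), and on D10 again 2 were higher (22.7%) and 4 lower (24.0%). The median difference of the 8 on D10 was -0.29 log2, against -0.02 over all genes. The members called were the same on D10 except that Col5a2 came in and Col5a1 went out. On D10 the 3 CD1530 libraries and the 3 AGN libraries did not overlap for any of the 8, as for 57.0% of all genes.

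Among the fibrillar chains the type I and III genes were lower in CD1530. Col1a2 was at 5081, 5192 and 5054 TMM CPM in the CD1530 D10 libraries and at 7831, 7892 and 7626 in AGN, a difference of -0.61 ± 0.07 log2 (adjusted p = 1.08e-07), after -0.39 ± 0.07 on D8.5. Col3a1 was at 4183, 4233 and 4173 in CD1530 and 5828, 5813 and 5673 in AGN, or -0.46 ± 0.04 (adjusted p = 1.85e-12), after -0.41 ± 0.04. Col1a1 was at 9693, 10141 and 9521 against 11724, 11898 and 10926. Its difference of -0.24 ± 0.10 did not pass (adjusted p = 0.0532), though every CD1530 library was below every AGN library. It did pass under 5 of 9 alternative settings, over which the adjusted p ran from 1.43e-07 to 0.0941, DESeq2 among them (-0.25, adjusted p = 0.00993).

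Type V chains went in different directions. Col5a2 was at 1746, 1748 and 1757 in CD1530 and 2227, 2229 and 2198 in AGN on D10, -0.34 ± 0.07 log2 (adjusted p = 0.000333), with a D8.5 difference of -0.10 ± 0.07 that did not pass. Col5a1 was lower on D8.5 (-0.32 ± 0.08, adjusted p = 0.00278), and its D10 difference, -0.17 ± 0.08, did not pass (adjusted p = 0.0989; 5.48e-07 to 0.187 over 9 alternative settings, 3 of which called it). Its D10 libraries were at 1531, 1552 and 1512 in CD1530 and 1696, 1761 and 1698 in AGN. Col5a3 was higher in CD1530, by 0.48 ± 0.11 on D8.5 (adjusted p = 0.000922) and 0.69 ± 0.11 on D10 (adjusted p = 1.66e-05, 1.61-fold). Unlike its change from PM in CD1530, this difference kept its sign and its call with GC and length trends removed.

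Col12a1 and Col14a1 ended on opposite sides. Col12a1 was at 416, 393 and 395 in CD1530 D10 and 266, 308 and 297 in AGN D10, 1.38-fold or 0.47 ± 0.17 log2 (adjusted p = 0.0234). The call rests on single libraries, since the adjusted p was 0.0641 without CD1530 replicate 1 and 0.0879 without AGN replicate 1. Its D8.5 difference, 0.51 ± 0.17 (adjusted p = 0.0181), gave 0.0572 without CD1530 replicate 3 and 0.0744 without AGN replicate 2. Col14a1 turned over: after being higher in CD1530 on D6.75 it was lower on D8.5, at 105, 115 and 114 against 137, 123 and 141 (-0.26 ± 0.07, adjusted p = 0.00509). On D10 it was at 155, 153 and 154 against 252, 247 and 233 (-0.66 ± 0.07, adjusted p = 7.79e-09).

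**Figure D4:**
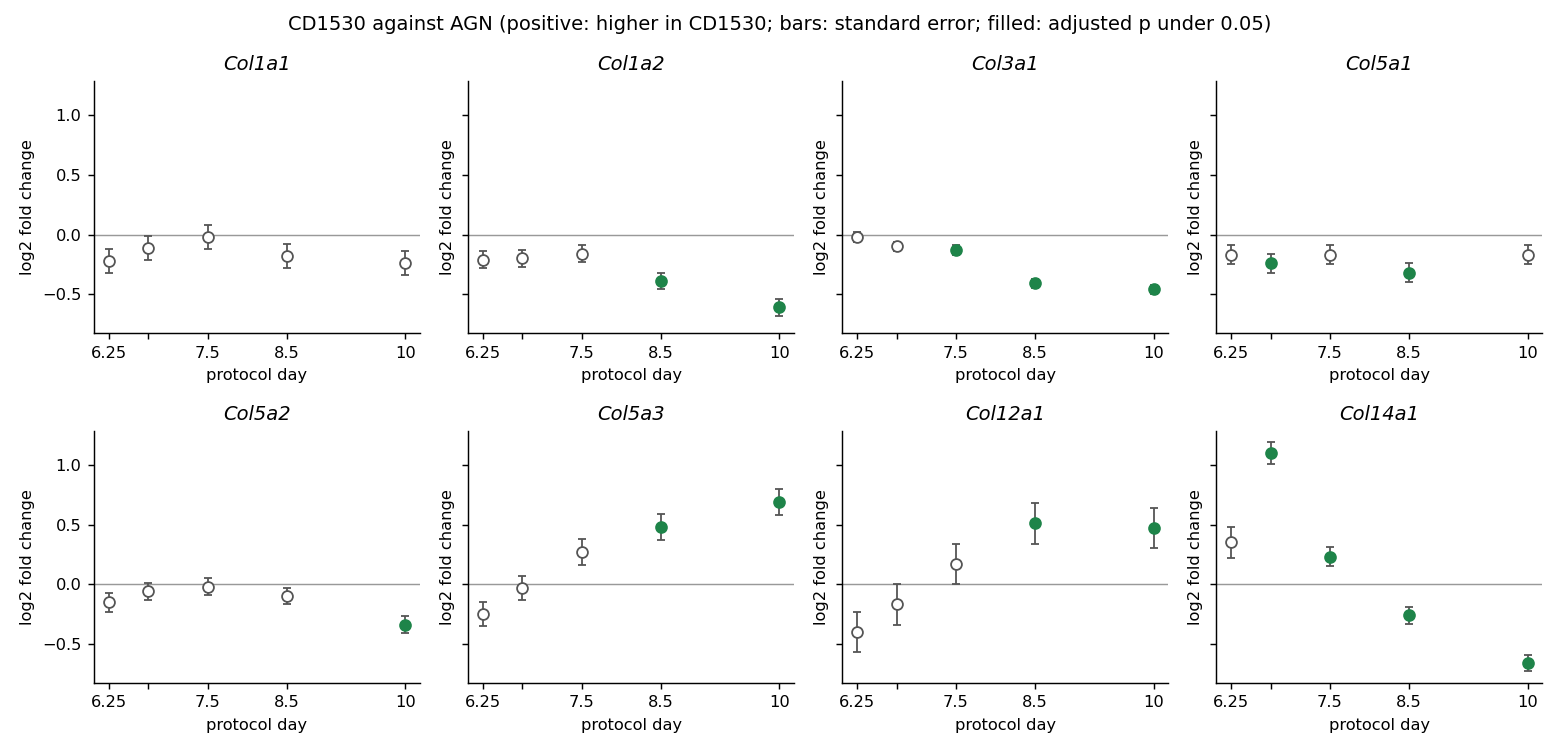
Difference between CD1530 and AGN (log2 fold change, y axis; above 0 is higher in CD1530) against protocol day (x axis) for each of the 8 collagens; bars are SE and filled points have an edgeR adjusted p under 0.05. Col14a1 goes from 1.10 on D6.75 to -0.66 on D10, while Col5a3 ends at 0.69 and Col12a1 at 0.47.

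An interaction test (4 degrees of freedom) asked whether the difference between conditions changed over the 5 times. It was called for 5 of the 8, and for 48.8% of all genes. Those were Col14a1, Col3a1, Col5a3, Col1a2 and Col12a1. Col5a2 (adjusted p = 0.0748), Col1a1 (0.576) and Col5a1 (0.675) did not pass by edgeR. Col5a2 did pass in 3 of 8 alternative settings, which were DESeq2 (adjusted p = 0.00821), no robust estimation (0.0287) and GC and length correction (0.0465), over an adjusted p of 0.00821 to 0.104. It also passed without CD1530 D6.25 replicate 1 or 2 or CD1530 D6.75 replicate 1 (adjusted p = 0.0298, 0.00439 and 0.0397). For the D8.5 to D10 step alone, 1 of the 8 was called (26.8% of all genes). That was Col14a1, which rose by 0.47 log2 in CD1530 and 0.87 in AGN. For Col5a2 the difference of steps was -0.24 (adjusted p = 0.0839) and for Col1a2 -0.22 (adjusted p = 0.117).

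Ratios of chains within a library need no scaling between libraries, and each below is a log2 ratio of counts per kb of exon. The type I helix uses 2 Col1a1 chains for each Col1a2. The ratio of Col1a1 to Col1a2 was 2.47, 2.44 and 2.37 in the PM libraries, and fell to 1.85, 1.89 and 1.83 in CD1530 and 1.50, 1.51 and 1.44 in AGN on D10. As linear ratios the group means were 5.38, 3.63 and 2.8. Per kb of the longest coding transcript they were 2.56, 1.73 and 1.33, so the absolute value depends on which length is used while the fall does not. The ratio of Col3a1 to Col1a1 was -2.35 in PM, peaked on D7.5 at -0.94 in CD1530 and -0.82 in AGN, and returned to -1.80 and -1.58 on D10.

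In type V, Col5a1 exceeded Col5a2 by 1.35 in PM and by 1.89 (CD1530) and 1.90 (AGN) on D6.25, and on D10 the ratio was -0.02 and -0.19. Per kb of coding transcript the D10 values were -0.54 and -0.71, with Col5a2 above Col5a1 in each library, against 0.83 in PM. The ratio of Col5a3 to Col5a1 fell from -0.99 in PM. On D10 it was -3.24 (CD1530) and -4.10 (AGN). Its difference between conditions (CD1530 minus AGN) was 0.21 on D6.75, 0.45 on D7.5, 0.80 on D8.5 and 0.86 on D10. Col5a1 relative to Col1a1 changed less, from -2.77 in PM to -2.32 and -2.38 on D6.25 and -3.05 and -3.12 on D10. For the chains on the fibril surface, the ratio of Col14a1 to Col12a1 changed its order between conditions. On D6.75 it was 0.36, -0.12 and 0.08 in CD1530 and -1.41, -1.07 and -1.10 in AGN. On D10 it was -0.30, -0.24 and -0.24 in CD1530 and 1.04, 0.80 and 0.77 in AGN, so that the order of the conditions was opposite on the 2 days with no overlap on either. Whether a value lies above 0 depends on the length used: per kb of coding transcript the CD1530 mean was -0.18 on D6.75 and the AGN mean 0.58 on D10, and on raw counts the means of all 11 groups were below 0. For Col5a1 to Col1a1 the exact permutation p between conditions was 0.3 on D6.25 and 0.2 on D10. For Col5a1 to Col5a2 on D6.25 it was 0.9. For the other differences between conditions given here it was 0.1, the smallest that 3 against 3 allows.

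**Figure D5:**
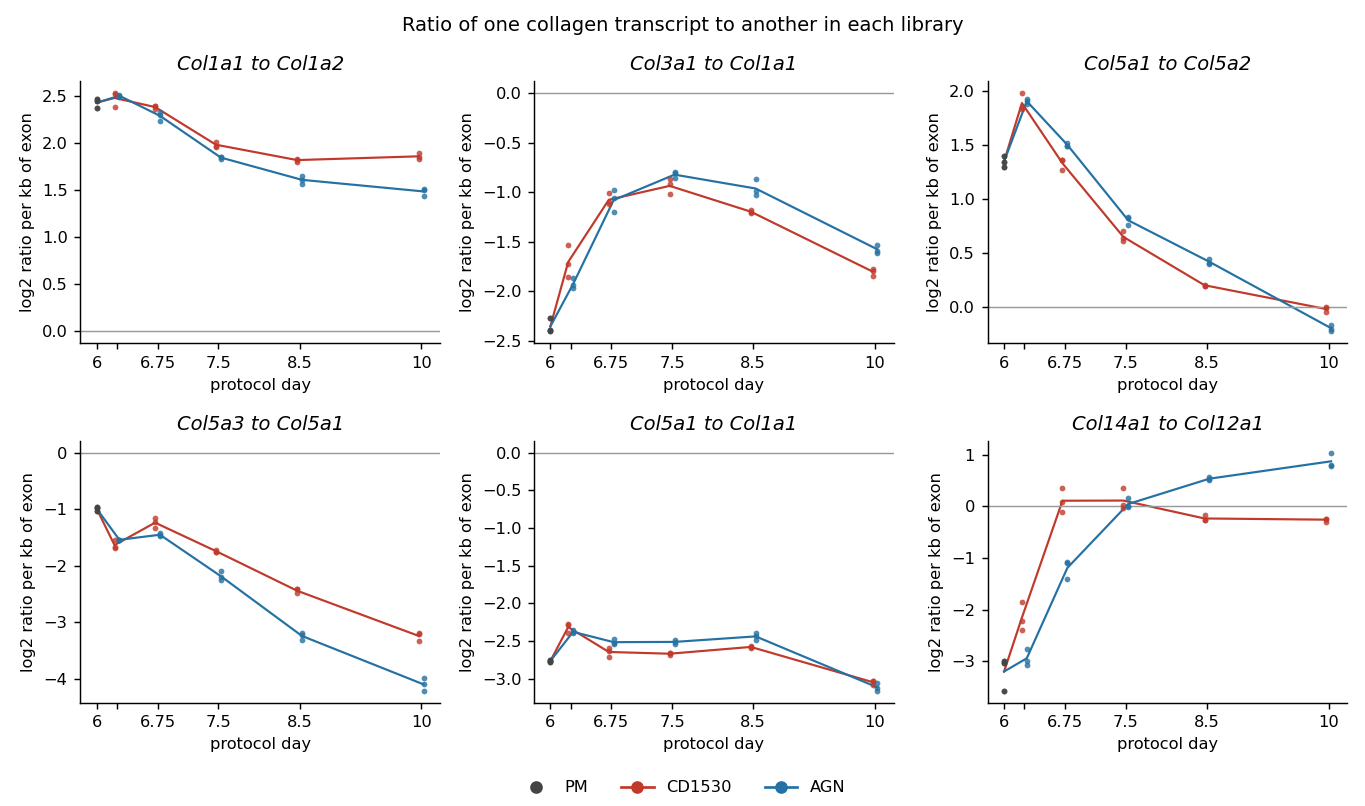
Log2 ratio of 2 chains per kb of exon (y axis) against protocol day (x axis) for 6 pairs, one panel per pair, with PM in grey, CD1530 in red and AGN in blue; points are libraries and lines join group means. Col1a1 to Col1a2 falls from 2.43 in PM to 1.86 and 1.49 on D10, and Col14a1 to Col12a1 ends at -0.26 in CD1530 and 0.87 in AGN.

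Genes that make, trim and organise these chains were described from lists, with D10 calls for CD1530 against AGN. Of all genes, 22.7% were higher and 24.0% lower in CD1530 on D10, and each list is to be read against those shares. Of 28 genes for hydroxylation, folding and export of procollagen, 22 were lower in CD1530 and 2 higher, with a median of -0.32 log2 against -0.02 over all genes. The largest fall was in P4ha3, a prolyl 4-hydroxylase subunit (37 against 105 TMM CPM, -1.50). The collagen chaperone Serpinh1 was at 2594 and 3224 (-0.31). The 2 that were higher were P3h2, a prolyl 3-hydroxylase (1.29), and Creb3l1, a transcription factor that acts on collagen genes and secretion (0.67). From PM to D10, 26 of the 28 were higher and 2 lower in each condition, against 43.3% (CD1530) and 41.6% (AGN) of all genes higher and 39.9% and 40.4% lower.

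Trimming and crosslinking enzymes were mixed, with 4 of 12 higher and 6 lower in CD1530 on D10 (median -0.10), beside 22.7% and 24.0% of all genes. Higher were the propeptidases Tll1 (1.31) and Adamts14 (0.93) and the crosslinking enzymes Lox (1837 against 1038 TMM CPM, 0.82) and Loxl2 (0.41). Lower were the crosslinking enzymes Loxl1 (211 against 363, -0.78), Loxl4 (-0.39) and Loxl3 (-0.33). The propeptidase Adamts3 (-0.56) and the procollagen proteinase enhancers Pcolce (-0.41) and Pcolce2 (-1.72, at 1.15 and 3.81 TMM CPM) were also lower. Of 22 fibril assembly partners, 7 were higher and 10 lower (median -0.15), beside the same 22.7% and 24.0%. At the ends were the small proteoglycans decorin (Dcn, 1054 against 387, 1.45) and fibromodulin (Fmod, 434 against 2087, -2.27), both of which bind fibrils. The remaining 5, not called, were Lum, Fn1, Matn2, Itga1 and Ddr2.

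Other collagens were set beside the 8. One list of 9 was built around the collagens of cartilage, and not all of its members form fibrils. Of these, 7 were lower in CD1530 on D10 and 2 higher (24.0% and 22.7% of all genes), with a median of -2.44. Col2a1, the main cartilage collagen, was at 145 against 2497 TMM CPM (-4.10), and Col9a3 had the largest difference (-4.50). Higher were Col27a1 (0.73) and Col10a1 (1.23, at 3.47 against 1.48). A further list had 4 collagens in the table, not all of them fibril-associated. Of these, Col22a1 was higher (1.23), Col26a1 (-1.26) and Col16a1 (-0.88) were lower and Col20a1 was not called. Of 13 basement membrane and microfibril collagens 5 were higher and 5 lower (median 0.04; 22.7% and 24.0% of all genes), with Col8a2 the most lowered (-1.69) and Col6a5 the most raised (1.92, at 0.319 against 0.0805 TMM CPM). Col4a1, of basement membranes, was at 3232 and 2653 (0.29).

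Of 21 regulators of fibrillar collagen genes, 10 were higher in CD1530 on D10 and 4 lower (median 0.12), where 22.7% of all genes were higher and 24.0% lower. The TGFβ signal carrier Smad3 was higher (114 against 72.5 TMM CPM, 0.65), as was Egr1 (184 against 117, 0.65), a zinc finger factor of tendon. Lower were Scx (858 against 1223, -0.51), the bone factors Sp7 (-3.25) and Runx2 (-1.64), and Smad4 (-0.14). Mkx, a homeobox factor of tendon, was at 36.7 and 37.2 and was not called. All these values come from the same fit as the collagens, and no list was tested as a set.

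Markers of cell types that the cultures could hold were summed, and they did not all move the way of the collagens. The summed level of 5 tendon markers (Scx, Mkx, Tnmd, Fmod and Thbs4) was 7.11 to 10.3 TMM CPM in PM, 1435 to 1480 in CD1530 D10 and 3933 to 4182 in AGN D10. Fmod (434 in CD1530 and 2087 in AGN) and Thbs4 (124 and 692) carried most of the D10 gap. Scx was at 858 and 1223, and Mkx, at 36.7 and 37.2, was not called. Tnmd, a late marker of tendon, stayed low at 5.12 and 10.4 on D10. The 6 cartilage markers in the table summed to 22.5 to 24.6 in PM, 234 to 241 in CD1530 and 2959 to 3092 in AGN, and all of them were lower in CD1530. The 6 fibroblast markers summed to 57.7 to 61.2, 210 to 218 and 356 to 361. Pdgfra carried most of that sum on D10, at 176 in CD1530 and 307 in AGN, from 27.7 in PM. From PM to D10 Twist2 and Pi16 also rose in both conditions. Dpp4 rose in CD1530 (1.22 log2) and fell in AGN (-1.73). Dpt fell in CD1530 (-1.39) and was not called in AGN, and Thy1 was not called in CD1530 and rose in AGN (1.00). The 6 smooth muscle and pericyte markers summed to 86.8 to 97.2, 987 to 1001 and 894 to 910. Osteoblast markers (5 genes) summed to 856 to 916, 766 to 808 and 422 to 436, a sum below PM in both conditions and higher in CD1530 than in AGN. The defining gene Sp7 was at 0.248, 0.41 and 3.99. The genes did not move together from PM to D10. Alpl fell (-2.70 log2 in CD1530 and -5.10 in AGN) and Dmp1 rose (8.79 and 8.27). Spp1 rose in CD1530 (0.57) and fell in AGN (-0.22). Ibsp rose in CD1530 (1.33) and was not called in AGN. Pluripotency markers summed to 1263 to 1285, 78.5 to 83.5 and 188 to 197. Pou5f1 carried the D10 gap (26.6 in CD1530 and 149 in AGN). Nanog was higher in CD1530 (46.1 against 35.2, 0.39 log2), and Zfp42 did not differ by a call. Endoderm markers were at 674 to 696, 129 to 132 and 279 to 284, and neural markers at 580 to 595, 134 to 148 and 63.5 to 65.1. Epcam and Cdh1 carried the endoderm sum, while from PM to D10 Foxa2 rose by 2.55 log2 in CD1530 and 4.27 in AGN, and Sox17 by 2.23 and 1.47. Sox2 carried the neural sum, at 536 in PM, 77.9 in CD1530 and 49.2 in AGN. The study measured Sox2 as a pluripotency gene, so the fall of this sum is not read as a loss of neural transcripts. Tubb3 also fell (49, 36.6 and 13.3). Sox1, nearly absent in PM, rose in both conditions (0.0816, 16 and 0.367). Pax6 rose by 3.77 log2 in CD1530 and fell by 1.05 in AGN, and Neurod1 was not called. Endothelial markers summed to 102 to 107, 142 to 155 and 132 to 140, and blood markers to 42.7 to 50.7, 4.4 to 5.68 and 7.17 to 9.69. The endothelial sum mixed opposite changes from PM to D10. Pecam1 fell (-1.75 log2 in CD1530 and -1.69 in AGN), while Cdh5 (4.67 and 4.91), Kdr (3.53 and 2.44) and Emcn (6.26 and 5.02) rose. Tek fell in CD1530 (-0.42) and was not called in AGN. Muscle markers summed to 3.25 to 3.31, 2.86 to 3.71 and 5.31 to 6.32, and paraxial mesoderm markers to 109 to 116, 89.6 to 94.2 and 101 to 106. The paraxial mesoderm sum also mixed opposite changes. Tbx6 (-5.03 log2 in CD1530 and -4.69 in AGN), Msgn1 (-7.14 and -6.18) and T (-7.28 and -1.54) fell from PM to D10. Meox1 rose (3.64 and 3.47), and Tcf15 rose in CD1530 (0.36) and fell in AGN (-0.48). The part of these cell types in the collagen differences was not tested.

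Patterns over the 11 group means were compared as a description, on log2(TMM CPM + 1). The 7 collagens other than Col5a3 correlated with each other at Pearson r from 0.841 to 0.989, and Col5a3 correlated with them at -0.422 to -0.074. These points share libraries and one overall time trend. Among 12371 other genes, Col1a2 was most like Mmp2, a gelatin-degrading protease (0.998), P3h4 (0.995) and Fkbp7 (0.994), both of collagen processing in the endoplasmic reticulum. Col5a2 was most like Fbn1, the microfibril protein fibrillin-1 (0.998), Cacna1g and Tmem129 (both 0.997). Col12a1 was most like Tmtc2 (0.986), the matrix protein Tnc and Hspa2 (both 0.985), and Col14a1 most like the growth factor Igf1 (0.992), Samd14 (0.991) and Zfp575 (0.990). For Col1a1 they were Slc39a3, Kcna6 and Cant1 (all 0.991), for Col3a1 Fam171a2, Cxxc4 and Ttyh3 (all 0.992), and for Col5a1 Kif3b (0.994), Fndc3b (0.990) and Bicc1 (0.989). Col5a3 had no match as close, with Rap1gap2 at 0.964, the lymphatic growth factor Vegfc at 0.958 and the WNT inhibitor Sfrp5 at 0.951.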

How the data were processed

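RNA-seq was measured in 33 mouse cell cultures in 11 groups, and groups and replicate numbers were taken from the sample titles. The authors aligned paired-end reads to GRCm38 with STAR, counted them per gene with featureCounts and deposited raw counts, with no normalization. The annotation release, strandedness and treatment of multi-mapping reads are not given in the sources used here, so reads of overlapping antisense genes may not be separated. The deposited counts had been filtered: the third-highest library of each of the 17120 genes reached at least 0.611 CPM. All identifiers matched GENCODE M21, which gave positions, exon lengths and GC content. No column of the table was left unmapped. The median library total was 19899242, and for Col14a1 in PM, the lowest values, 27 to 57 counts limit the precision. PCR copies are not independent molecules.

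Testing used edgeR 4.0.16 in R 4.3.3: 1 fit of all 33 libraries with a mean per group, TMM scaling, filterByExpr and robust quasi-likelihood F tests, adjusted by the Benjamini-Hochberg method over all genes within each of 17 contrasts of 2 groups and 2 interactions. Shares and chain ratios were tested by two-sided exact permutation tests (35 tests) in Python 3.11.15 with scipy 1.17.1. Alternatives were DESeq2 1.42.0, other scalings and filters, the replicate block, fits of the compared libraries only, leaving out each library, and a correction for each library's trends with GC content and exon length. The last, and the length of the longest coding transcript for levels and ratios, were added after seeing the data. The scripts were tested on simulated data. The members and lists were chosen with earlier results of these data known. Named were all 8 members, the 3 genes closest to each by Pearson r (mean of at least 50 counts, no predicted-gene symbols), and from each list the largest called change in each direction on D10 and members counted among 5 or fewer. Serpinh1, Col2a1, Col4a1, Lox, Loxl1, Loxl2, Loxl3, Loxl4, Adamts3, Adamts14, Pcolce, Smad3, Egr1 and Mkx were added after their values were seen. So were the single fibroblast, pluripotency and neural markers. Same-numbered libraries of different groups did not deviate together (median correlation 0.01, with 10 of 165 pairs over 0.1), so the numbers were not used to pair samples.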

Additional observations from a re-analysis of the deposited data

Results flagged for a closer look

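For 5 collagens the difference between CD1530 and AGN changed over the 5 time points in edgeR's quasi-likelihood interaction test, adjusted over all genes. The adjusted p was 2.97e-12 for Col14a1, 1.01e-08 for Col3a1, 9.4e-05 for Col5a3, 0.00274 for Col1a2 and 0.00954 for Col12a1. Of all genes, 48.8% passed the same test. Col14a1 was higher in CD1530 on D6.75 (1.10 log2) and lower on D10 (-0.66), while the differences of Col1a2 and Col3a1 went from -0.21 and -0.02 on D6.25 to -0.61 and -0.46 on D10. The step of Col14a1 from D8.5 to D10 also differed between conditions, by -0.40 ± 0.10 log2 (CD1530 minus AGN, edgeR adjusted p = 0.00462).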

How the results depend on the processing

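Of 106 calls over the 8 collagens, 105 were kept with DESeq2 size factors or library sizes in place of TMM, 106 with no filter or a filter of 1 CPM, 106 without robust estimation (7 gained), 106 with DESeq2 (7 gained) and 102 with GC and length trends removed (6 gained). The exception in direction was Col5a3 in CD1530 D10 against PM, which turned to -0.54 with GC and length trends removed. That correction moved the median change of all genes from PM to D10. It went from 0.04 to -0.12 in CD1530 and from -0.00 to -0.17 in AGN. Library size alone shifted the AGN median by -0.15 between PM and D10, and moved the share of calls that were higher from 50.4% to 38.7% in AGN and from 47.8% to 35.6% in CD1530 at the D10 step, and from 50.9% to 32.2% and from 51.6% to 40.5% at the D8.5 step. GC and length correction moved it from 51.4% to 38.9% in AGN and from 50.9% to 39.2% in CD1530 at D6.25, and from 57.0% to 40.8% and from 56.2% to 41.6% at D6.75. The replicate block changed 1 call: Col5a3 differed between CD1530 and AGN on D7.5 (0.27, adjusted p = 0.0493), giving 3 collagens called in place of 2. Between CD1530 and AGN, the number called on D6.25 was 1 (Col14a1) in place of 0 with the compared libraries only or GC and length correction, and 0 to 3 when 1 library was left out. On D6.75 it was 1 in place of 2 under both of those, and 1 to 4 when 1 library was left out. On D7.5 it was 1 with DESeq2 size factors, 5 with the compared libraries only, 4 with DESeq2 and 1 to 2 when 1 library was left out. On D8.5 it was 8 in place of 6 with the compared libraries only, and on D10 it was 8 with the compared libraries only, GC and length correction or DESeq2 and 7 with DESeq2 size factors or without robust estimation; on both days it was 5 to 6 when 1 library was left out. Over all genes, the calls between conditions on D10 numbered 7980 in the main fit, 8091 with DESeq2 size factors and 8439 with GC and length correction. Requiring also a log2 fold change of at least 1 left 1 on D6.75 and 0 on D7.5, D8.5 and D10 between conditions. With that requirement the CD1530 steps called 5 (to D6.25), 2 (to D6.75), 0 (to D7.5), 1 (to D8.5) and 2 (to D10), and the AGN steps called 2 (to D6.75), 1 (to D7.5), 1 (to D8.5) and 3 (to D10). Shares of all genes are not given for most of these settings, so the counts say only how calls of the 8 moved with the setting. The interaction of the last step called 2 in place of 1 without robust estimation and with DESeq2. With TMM effective library sizes the difference in the share of counts was -0.25 on D8.5 and -0.66 on D10. Of the 24 closest genes by Pearson r, 3 were among the 3 closest by Spearman rho. In all, 29 of 762 calls were lost when 1 library was left out, and none changed direction. The cause of these changes was not tested.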
